A study of Mus musculus with 12 samples.

Results

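Reads of 8 genes known for secretion into saliva were followed through 12 RNA-seq libraries of mouse mammary epithelium. The genes are Bpifa2, Amy1, Smr3a, Prol1, Prp2, Prh1, Mup5 and Scgb2b26, 8 of the 27179 genes in the count table, and they were taken by symbol. They had been picked because their counts in the knockout-labelled and control libraries stood out, so those counts and folds are given as a description without a test. All 8 passed the filter on low counts, but Prp2, Prh1 and Scgb2b26 passed only through the luminal knockout-labelled libraries, in which they were high. The controls were Foxp1(fl/fl) mice, which carry floxed Foxp1 alleles and no labelled Cre. The knockout-labelled mice were MMTV-cre/Foxp1(fl/fl), with the same floxed alleles and Cre recombinase driven by the mouse mammary tumour virus promoter. That promoter is known to be active in mammary epithelium and also in salivary gland. All mice were female, their age is not in the labels, and a Cre-only group was not analysed here, so Cre and loss of Foxp1 cannot be told apart. Basal (myoepithelial) and luminal (milk-producing lineage) cells gave 4 groups of 3 biological replicates.

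Saliva is made by the parotid, submandibular and sublingual glands, whose acinar cells release enzymes, mucins and proline-rich proteins into ducts. Mammary epithelium is a related exocrine tissue, but its known main products are caseins and other milk proteins. Bpifa2 is the parotid secretory protein, a lipid-binding protein of the BPI fold, and Amy1 is the salivary amylase that cuts starch. Smr3a is an androgen-regulated submandibular peptide precursor. Prol1, also called Muc10, is a submandibular mucin. Prh1 and Prp2 are proline-rich proteins of saliva, Mup5 belongs to the lipocalins called major urinary proteins, and Scgb2b26 is a beta subunit of the androgen-binding proteins, secretoglobins of saliva.

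The libraries held between 9769361 and 11133908 counted reads, except luminal knockout-labelled replicate 3 with 15449513. Foxp1, the targeted gene, stood at 221, 213 and 160 CPM (counts scaled to the library total, here with TMM factors) in the basal controls and at 212, 193 and 284 in the basal knockout-labelled libraries. It was at 82.3, 62 and 78.2 in the luminal controls and at 161, 150 and 155 in the luminal knockout-labelled libraries. Foxp1 reads thus go against the label in the luminal libraries and overlap in the basal ones, and reads from exons outside the floxed part enter this count, so every direction below refers to the labels. The 8 basal marker genes summed to 16078 to 18484 CPM in the basal controls and 136 to 673 in the luminal controls, and the 8 luminal marker genes to 1242 to 1545 and 11376 to 15948. In the knockout-labelled libraries the basal markers summed to 13255 to 18740 CPM (basal) and 310 to 823 CPM (luminal). The luminal markers summed to 1589 to 2309 CPM and 14808 to 20286 CPM there. The lineage markers follow the lineage labels, but the luminal markers in the basal knockout-labelled libraries lay above all basal controls. The part of this shift in the basal values below was not tested.

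Prh1 and Prp2 lie side by side on chromosome 6 (GRCm38, chr6:132569842-132572401 and chr6:132595911-132600702), and their upstream sequences are shown because the counts of the pair are read together below. The 250 bases before each annotated start, on the plus strand at chr6:132569592-132569841 for Prh1 and chr6:132595661-132595910 for Prp2 (RefSeq, GRCm38), are given 5′ to 3′. Capitals mark the longest stretch found in both, 137 bases.
Prh1: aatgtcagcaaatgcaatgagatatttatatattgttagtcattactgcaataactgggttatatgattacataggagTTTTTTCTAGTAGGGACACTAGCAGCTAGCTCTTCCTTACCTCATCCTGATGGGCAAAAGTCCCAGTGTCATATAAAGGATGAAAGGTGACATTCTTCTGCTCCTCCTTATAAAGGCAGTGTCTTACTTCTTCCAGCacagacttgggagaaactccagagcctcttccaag
Prp2: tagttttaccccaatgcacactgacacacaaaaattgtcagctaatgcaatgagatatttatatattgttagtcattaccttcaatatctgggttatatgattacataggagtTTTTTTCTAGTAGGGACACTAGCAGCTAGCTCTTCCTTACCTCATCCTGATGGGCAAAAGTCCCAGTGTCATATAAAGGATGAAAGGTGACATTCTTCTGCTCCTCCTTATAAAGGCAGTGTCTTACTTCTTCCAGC
With Prp2 set 35 bases against Prh1 and no gaps allowed, 157 of 215 aligned bases (73.0%) were identical. Without gaps, this share does not measure how alike the bases before the capitals are, where further stretches can be read in both. The shared stretch begins 172 bases before the start of Prh1 and 137 bases before that of Prp2. The pair also shares transcript sequence: 178 of the 801 stretches of 50 bases in Prp2 transcripts (22.2%) and 178 of 847 in Prh1 transcripts (21.0%) occur in the other gene (GENCODE M21). How reads from these stretches were assigned is not given in the sources used here, so the split of counts between Prh1 and Prp2 is uncertain.

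Smr3a (chr5:87991555-88008534) and Prol1 (chr5:88317312-88328817) lie in 1 cluster on chromosome 5 and are shown because their counts differ in opposite directions below. The 250 bases before the transcript starts are on the plus strand at chr5:88002275-88002524 for Smr3a, a start inside the gene's annotated span, and at chr5:88317062-88317311 for Prol1. Capitals mark the letters of the forkhead core TGTTTAC, searched on both strands.
Smr3a: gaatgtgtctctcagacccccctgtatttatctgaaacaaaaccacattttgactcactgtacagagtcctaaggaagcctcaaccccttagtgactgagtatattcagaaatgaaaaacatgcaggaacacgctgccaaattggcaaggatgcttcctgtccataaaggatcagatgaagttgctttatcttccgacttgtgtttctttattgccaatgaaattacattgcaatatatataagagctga
Prol1: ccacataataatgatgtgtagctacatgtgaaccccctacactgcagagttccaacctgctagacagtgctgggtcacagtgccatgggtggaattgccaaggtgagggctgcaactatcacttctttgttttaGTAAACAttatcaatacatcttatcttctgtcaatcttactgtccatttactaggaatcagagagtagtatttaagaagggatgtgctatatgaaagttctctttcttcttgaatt
The forkhead letters were found on the minus strand 116 bases before the start of Prol1 and in no upstream window of the other 6 members with a sequence. Of all 32851 windows of this length, 3.17% hold them. The letters TATAAA, searched on both strands, were in the windows of 4 of the 7 members (Amy1, Prh1, Prp2 and Scgb2b26) and in 12.4% of all windows. No entry was used for Mup5. These matches describe letters and are no measure of binding.

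Bpifa2 was the most abundant of the 8 genes in every group. Its counts were 5425, 10355 and 22204 in the basal controls, 1211, 36597 and 5085 in the basal knockout-labelled libraries, 661948, 62127 and 313738 in the luminal controls, and 670750, 200724 and 248831 in the luminal knockout-labelled libraries. In luminal control replicate 1 this was 6.05% of all counted reads and in luminal knockout-labelled replicate 1 it was 6.70%. Every luminal library lay above every basal library, and the labelled genotypes overlapped in both lineages. Between the lowest and the highest replicate the level varied 4.02-fold in the basal controls, 30.4-fold in the basal knockout-labelled libraries, 9.52-fold in the luminal controls and 4.16-fold in the luminal knockout-labelled libraries. In these bulk samples, fewer cells of a type and less RNA per cell cannot be told apart.

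Amy1 (chr3:113555952-113577750) followed Bpifa2 in the controls at about a constant fraction. It had 1645, 3354 and 8875 counts in the basal controls and 345, 13833 and 712 in the basal knockout-labelled libraries. In luminal cells the counts were 241661, 20816 and 132661 in the controls and 105851, 40417 and 21373 in the knockout-labelled libraries. The genotypes overlapped in both lineages. Per Bpifa2 read, the 6 controls held between 0.303 and 0.423 Amy1 reads, a 1.4-fold spread while the Amy1 level itself spread 136-fold. The luminal knockout-labelled libraries held 0.158, 0.201 and 0.0859, all below every control, and the basal ones 0.285, 0.378 and 0.14, of which replicate 2 lay within the control range. Of the 50-base stretches of Amy1 transcripts, 31.8% also occur in Rnpc3, and the library kit does not mark strand. Rnpc3 did not pass the test in any comparison (log2 fold -0.10, SE 0.22, for luminal knockout-labelled against control).

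**Figure D1:**
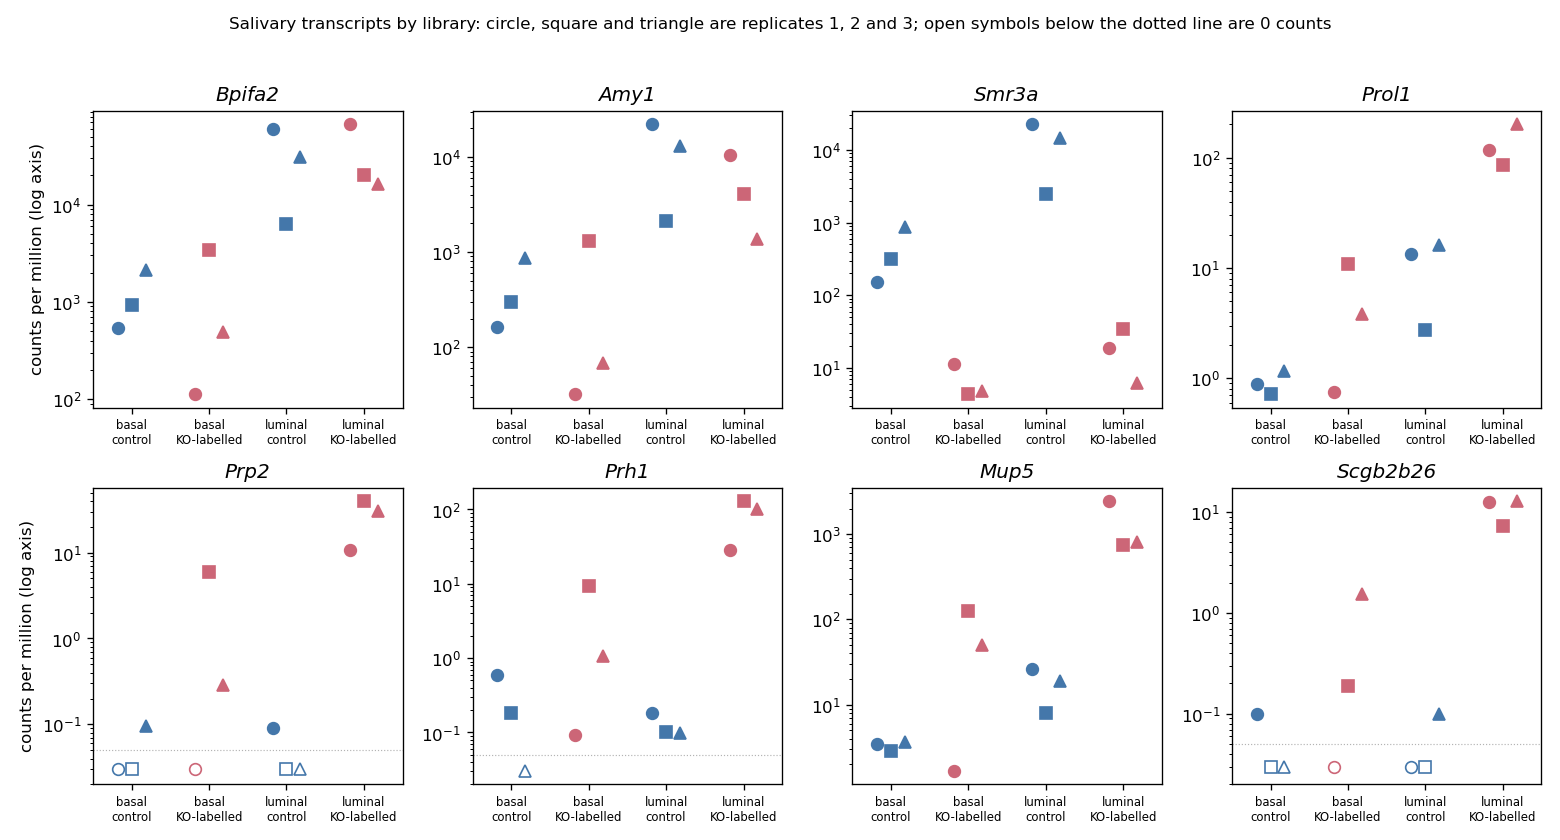
CPM of the 8 genes in each library, on log axes that differ between panels, with the 4 groups on the horizontal axis and 1 symbol per replicate. Bpifa2 and Amy1 overlap between labelled genotypes, Smr3a is lower in all knockout-labelled libraries than in any control, and Prol1, Prp2, Prh1, Mup5 and Scgb2b26 are highest in the luminal knockout-labelled libraries.

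Smr3a was high in all controls and low in all knockout-labelled libraries. The counts were 1555, 3477 and 9024 in the basal controls against 122, 47 and 50 in the basal knockout-labelled libraries. In luminal cells they were 245029, 24294 and 146037 in the controls against 192, 344 and 96. The groups did not overlap in either lineage, and the highest knockout-labelled library of either lineage (344 counts) lay below the lowest control (1555). The mean level was 13134 ± 10030 CPM (SD, n = 3) in luminal controls and 19.9 ± 14.1 CPM in luminal knockout-labelled libraries. On the log2 scale it was lower by a fitted 9.47 (SE 1.18) in luminal and 5.89 (SE 1.02) in basal cells, which is a value of the contrasts the genes were chosen on. Of the 50-base stretches of Smr3a transcripts, 41.8% also occur in the gene model Gm28434.

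Per Bpifa2 read, Smr3a varied less among the controls than its level did, though more than Amy1 per Bpifa2 read. The basal controls held 0.287, 0.336 and 0.406 Smr3a reads per Bpifa2 read and the luminal controls 0.37, 0.391 and 0.465. That is a 1.62-fold spread over 6 libraries in which Smr3a itself spread 146-fold. The knockout-labelled ratios were 0.101, 0.00128 and 0.00983 in basal and 0.000286, 0.00171 and 0.000386 in luminal cells, a 353-fold spread. Basal knockout-labelled replicate 1 was the closest to the controls, with a ratio of 0.101 (exact 95% counting interval 0.0829 to 0.121), and it was also the library with the lowest Bpifa2. These intervals cover counting error only.

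**Figure D2:**
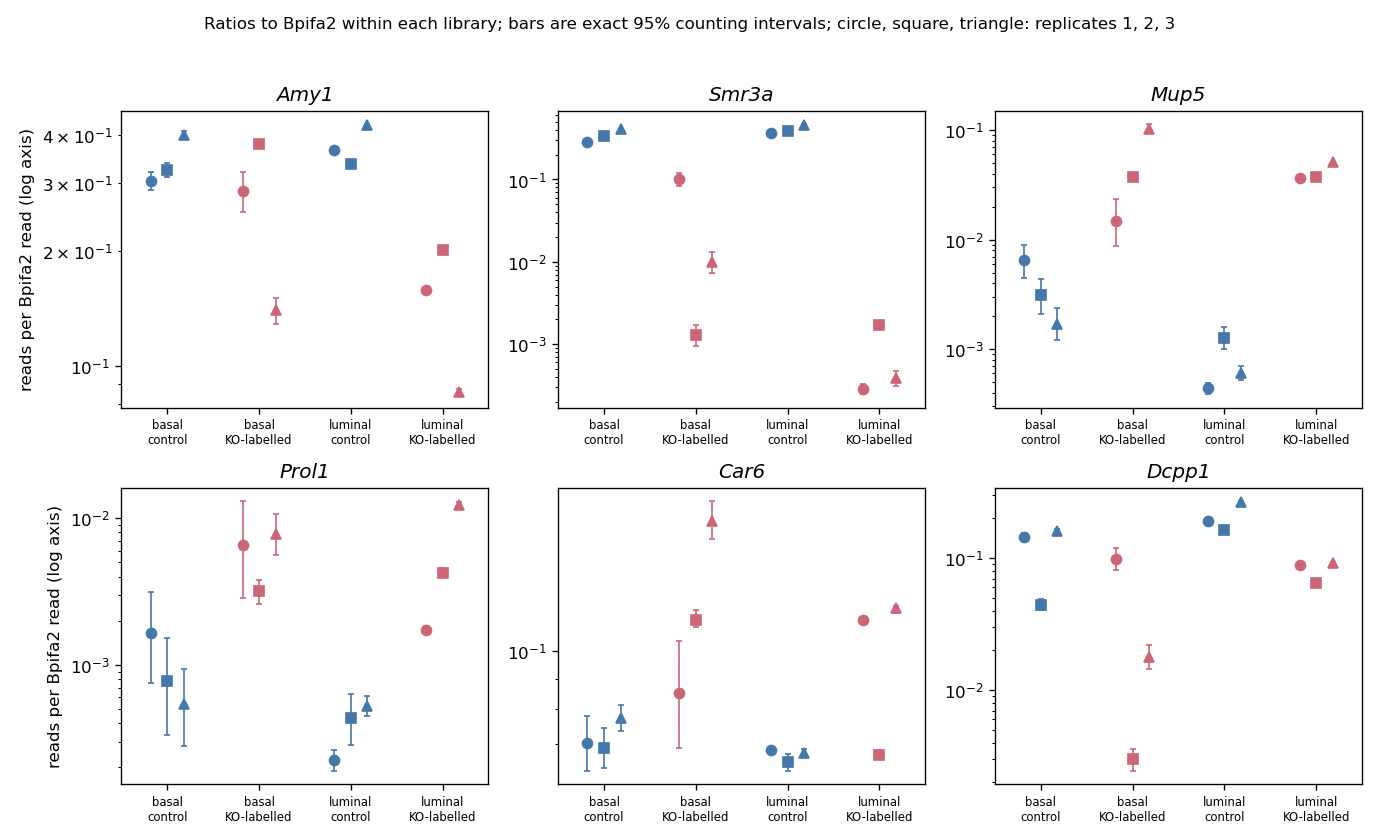
Reads of Amy1, Smr3a, Mup5, Prol1, Car6 and Dcpp1 per Bpifa2 read in each library, on log axes, with exact 95% counting intervals as bars and 1 symbol per replicate. Smr3a and Amy1 sit at near-equal ratios in the 6 controls, while Mup5 is above every control ratio in all 6 knockout-labelled libraries.

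Prh1 and Prp2 had few or no reads in the controls. Prh1 had 6, 2 and 0 counts in the basal controls and 2, 1 and 1 in the luminal controls, and Prp2 had 0, 0 and 1 and 1, 0 and 0. For Prh1 in basal control replicate 3, a count of 0 allows up to 3 counts, or 0.29 CPM. In the luminal knockout-labelled libraries Prh1 had 285, 1297 and 1572 counts and Prp2 107, 398 and 474. Both genes were therefore above every control in all 3 of these libraries. In the basal knockout-labelled libraries Prh1 had 1, 101 and 11 counts and Prp2 0, 64 and 3, and both groups overlapped with the controls.

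The pair kept a similar proportion in luminal cells. Prp2 reads per Prh1 read were 0.375, 0.307 and 0.302 in the luminal knockout-labelled libraries, and their counting intervals overlapped (0.298 to 0.47, 0.274 to 0.344 and 0.272 to 0.334). Basal knockout-labelled replicate 2 gave 0.634 (0.456 to 0.875). Summed over 3 libraries, Prp2 rested on 1 count in the luminal controls and 979 in the knockout-labelled libraries, a ratio scaled by library size of 851 (exact 95% interval 152 to 33643). For Prh1 the sums were 4 and 3154.

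Mup5 (chr4:61831319-61858043) had the largest counts of the genes that were higher in the knockout-labelled libraries. It had 35, 32 and 38 counts in the basal controls and 18, 1356 and 526 in the basal knockout-labelled libraries. The luminal counts were 289, 79 and 190 in the controls and 24471, 7503 and 12600 in the knockout-labelled libraries. The luminal groups did not overlap, and basal knockout-labelled replicate 1 was the lowest of all 12 libraries. The luminal mean was 17.8 ± 9.22 CPM in controls and 1336 ± 960 CPM in knockout-labelled libraries (SD, n = 3). Per Bpifa2 read, all 6 knockout-labelled libraries (0.0149 to 0.103) lay above all 6 controls (0.000437 to 0.00645), basal replicate 1 included. In the luminal knockout-labelled libraries the ratio was 0.0365, 0.0374 and 0.0506. Part of the Mup5 transcript is not unique to it: 150 of 876 stretches of 50 bases (17.1%) occur in other genes, Mup4 foremost (11%).

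Prol1, the submandibular mucin, was low in controls. Its counts were 9, 8 and 12 in the basal controls and 8, 116 and 40 in the basal knockout-labelled libraries. In luminal cells it had 148, 27 and 164 in the controls and 1165, 856 and 3095 in the knockout-labelled libraries, without overlap. Its transcript shares no 50-base stretch with another gene. Unlike Mup5, its ratio to Bpifa2 was uneven in the luminal knockout-labelled libraries, at 0.00174, 0.00426 and 0.0124 reads per Bpifa2 read. Prol1 reads per Smr3a read, for 2 genes of 1 chromosomal cluster, were 0.000604 to 0.00579 in the controls, 0.0656, 2.47 and 0.8 in the basal knockout-labelled libraries and 6.07, 2.49 and 32.2 in the luminal ones. Prol1 thus outnumbered Smr3a in all 3 luminal knockout-labelled libraries and in basal replicate 2, and Smr3a outnumbered Prol1 in every other library.

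Scgb2b26 (chr7:33942997-33944985) was the sparsest of the genes that were higher. It had 1, 0 and 0 counts in the basal controls, 0, 2 and 16 in the basal knockout-labelled libraries, 0, 0 and 1 in the luminal controls, and 127, 73 and 199 in the luminal knockout-labelled libraries. Only the luminal groups were apart, and the scaled ratio of their sums (1 against 399 counts) was 347 (exact 95% interval 61.9 to 13732). Its transcript shares 9 of 530 stretches (1.7%) with Scgb2b2.

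Counted together, 5 of the 8 genes lay above and 1 below all luminal controls in the luminal knockout-labelled libraries, where 23.0% of the 14903 tested genes did not overlap in either direction. In basal cells 1 of 8 (Smr3a) lay below and 0 above, against 12.8% of all genes. The contrast chose the genes, and nothing is read from these shares. Fitted log2 folds in luminal cells, knockout-labelled against control, were 0.03 (SE 1.08) for Bpifa2, -1.28 (SE 1.25) for Amy1, 3.61 (SE 0.78) for Prol1 and 6.21 (SE 1.17) for Mup5. In basal cells they were 0.16 (SE 1.08), 0.07 (SE 1.24), 2.5 (SE 0.9) and 4.17 (SE 1.1). The basal values lean on knockout-labelled replicate 2: without it Bpifa2 was at -1.80 and Amy1 at -2.94, and the fitted value of Prh1 went from 3.72 to 1.28. Of the 8 fibroblast markers, 2 were called higher in basal knockout-labelled against control, as were 91 of the 14903 tested genes, and none was at 0 in all libraries. They summed to 1297 to 2493 CPM in these basal knockout-labelled libraries and 397 to 518 CPM in the basal controls. Their part in the basal values was not tested.

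**Figure D3:**
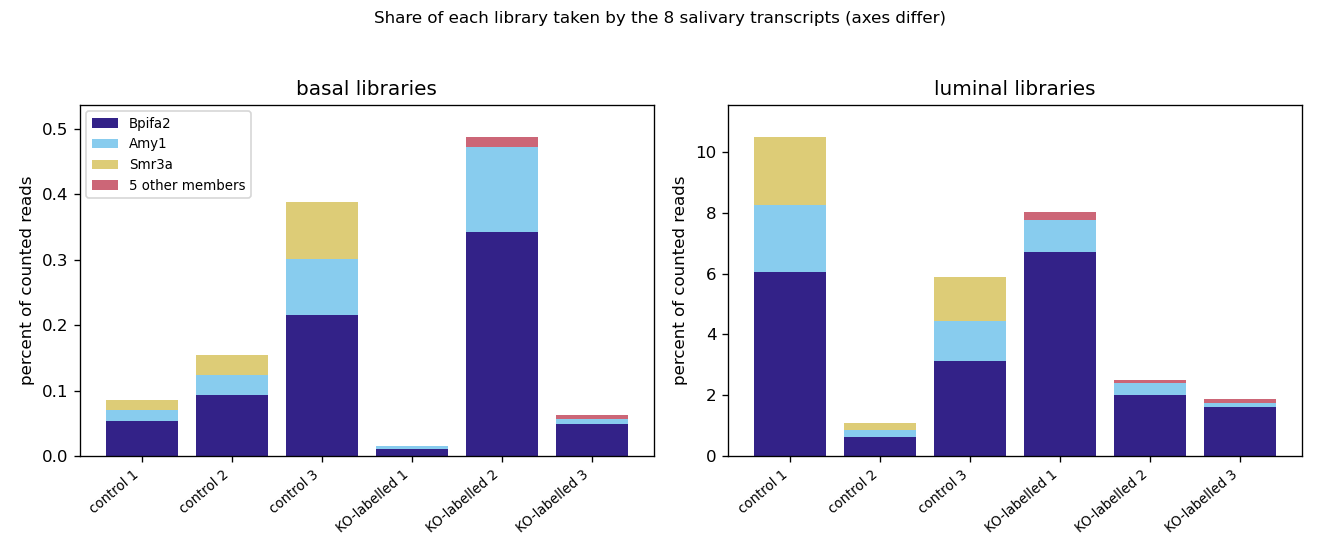
Percent of counted reads taken by Bpifa2, Amy1, Smr3a and the 5 other members in each library, stacked, with separate linear axes for basal and luminal libraries that start at 0. The 8 genes together took between 1.1 and 10.5% of the luminal control libraries and at most 0.488% of a basal library, and the Smr3a segment is visible in the controls only.

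The share of the library shows how much of the counted reads these genes took. Which cells these reads came from is not given by bulk counts and was not tested. Together they took 0.0856 to 0.389% of the basal controls, 0.0159 to 0.488% of the basal knockout-labelled libraries, 1.1 to 10.5% of the luminal controls and 1.87 to 8.02% of the luminal knockout-labelled libraries. The 5 genes other than Bpifa2, Amy1 and Smr3a summed to 11 to 40.2 CPM in the luminal controls and to 1012 to 2612 CPM in the luminal knockout-labelled libraries. Per kilobase of counted gene length, the luminal control means were 34012 CPM for Bpifa2, 19809 for Smr3a, 6844 for Amy1 and 20.4 for Mup5, with 9.32 or less for the other 4. In the luminal knockout-labelled libraries the order was Bpifa2 (35775), Amy1 (2926), Mup5 (1532), Prol1 (115), Prh1 (99.5), Smr3a (30.0), Prp2 (28.4) and Scgb2b26 (20.7). Neighbours among the genes named in each order overlapped in the range of their libraries, except Bpifa2 with Amy1 and Mup5 with Prol1 in the knockout-labelled libraries and Amy1 with Mup5 in the controls.

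Luminal against basal is a separate contrast, although it uses libraries of the comparisons that chose the genes. In the controls, 4 of the 8 genes were called higher in luminal cells by edgeR (adjusted p under 0.05), where 33.2% of all tested genes were called and 16.3% called higher. Of the 8, 5 had every luminal control above every basal control, as had 22.9% of all genes. Both counts include Smr3a, whose high counts in the luminal controls entered the choice of the genes. Nothing is read from these shares, and no p-value is given for Smr3a. It was 4.93 higher on the log2 scale (SE 0.97). Prol1 was 3.56 higher (SE 0.89), and edgeR called it (adjusted p = 0.00996). Bpifa2 was 4.81 higher (SE 1.27, adjusted p = 0.0129) and Amy1 4.88 (SE 1.45, adjusted p = 0.0237). The call for Bpifa2 was lost without basal control replicate 1 (adjusted p = 0.0589) or 2 (0.0509). That for Amy1 was lost without either (0.0892 and 0.0792), without luminal control replicate 1 (0.0656) and with no filter on low counts (0.0576). Mup5 was 2.42 higher (SE 1.05) and did not pass (adjusted p = 0.0991), although it passed with only the 2 control groups in the model (0.0125). Prp2 and Scgb2b26 had 1 count in each lineage, which gives no fold, and Prh1 was at -0.94 (SE 2.06).

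In the knockout-labelled libraries Bpifa2 was 4.68 higher in luminal than in basal cells on the log2 scale (SE 1.26), and edgeR called it (adjusted p = 0.0117). Prol1 was 4.67 higher (SE 0.83) and Mup5 4.45 (SE 1.07). The high counts of Prol1 and Mup5 in these luminal libraries entered the choice of the genes, so no test is given for them. Smr3a, at 1.35 (SE 0.87, adjusted p = 0.236), and Amy1, at 3.53 (SE 1.36, adjusted p = 0.0585), did not pass. Of all tested genes 40.6% were called and 19.2% called higher. Amy1 passed with DESeq2 (0.0136) and without basal knockout-labelled replicate 2 (0.00528), and the call for Bpifa2 was lost without basal knockout-labelled replicate 3 (0.0531). For Bpifa2 and Amy1 every luminal library lay above every basal one, as in 29.5% of all genes. The same held for Prol1 and Mup5, where nothing is read from it, and it did not hold for Smr3a. Prp2, Prh1 and Scgb2b26 entered the table of tested genes only through the luminal libraries compared here, so no test is given for them. Their counts, listed above, were higher in each luminal than in each basal knockout-labelled library.

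Other genes of saliva were taken from 7 lists of salivary secreted proteins, acinar genes and related families. They hold 110 further genes, of which 30 had no read in any library and 35 were tested. In luminal against basal controls, 22 of the 35 were called higher and 1 lower, where 33.2% of all tested genes were called and 16.3% called higher. Their median log2 difference was 3.35, and that of all tested genes 0.04. Without basal control replicate 1 the number called was 15. In the knockout-labelled libraries 24 of 35 were called higher and 0 lower, where 40.6% of all genes were called and 19.2% called higher (median 3.31, all genes 0.03). Of the 35, 8 passed the filter on low counts only with the help of luminal libraries, which favours a luminal call. Among the other 27, edgeR called 20 in the controls and 19 in the knockout-labelled libraries.

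Among parotid proteins 8 of 9 tested were called higher in the luminal controls (16.3% of all genes), 1 of which, Bpifb1, passed the filter on low counts only through luminal libraries. Car6, the secreted carbonic anhydrase of saliva, was 4.69 higher on the log2 scale (SE 1.3, adjusted p = 0.0171), and Dnase1, a secreted nuclease, 4.59 (SE 1.32, adjusted p = 0.02). The peroxidase Lpo was 3.87 higher (SE 0.76), the proline-rich proteins Prb1 4.54 (SE 1.17) and Prpmp5 4.86 (SE 1.03), the mucosal defence protein Dmbt1 5.0 (SE 0.88), and the prolactin-inducible protein Pip 4.3 (SE 1.21). In the knockout comparisons 0 of the 9 were called by edgeR, which called 0.671% (basal) and 3.03% (luminal) of all tested genes. There were 1 (basal) and 2 (luminal) at an unadjusted p under 0.05. DESeq2 called 1 and 2, and 417 and 1089 of the 14903 tested genes. With the replicate number as a block, Dmbt1 was called in luminal cells (3.03 higher on the log2 scale, adjusted p = 0.0418). Car6 reads per Bpifa2 read were 0.0653 to 0.0775 in the 6 controls, a 1.19-fold spread, and 0.0673 to 0.165 in the knockout-labelled libraries. Pip reads per Bpifa2 read were 0.0208 to 0.0538 in the controls and 0.0768 to 0.147 in the knockout-labelled libraries, without overlap.

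The sublingual demilune proteins Dcpp1, Dcpp2 and Dcpp3 were 5.55 (SE 1.11), 5.46 (SE 1.25) and 5.71 (SE 1.12) higher in luminal than in basal controls, and the mucin Muc5b 3.6 (SE 1.28). All 4 were called, where 16.3% of all genes were called higher, although Muc5b passed the filter on low counts only through luminal libraries. Dcpp1 had 126038, 10214 and 84322 counts in the luminal controls and 60060, 12971 and 22794 in the luminal knockout-labelled libraries, which overlap. In basal cells it had 783, 461 and 3586 counts in the controls and 119, 109 and 91 in the knockout-labelled libraries, all lower. Fitted log2 folds in basal cells were -3.84 (SE 1.03) for Dcpp1, -4.21 (SE 1.41) for Dcpp2 and -4.28 (SE 1.16) for Dcpp3. Of these 3, edgeR called 0 (adjusted p = 0.144, 0.277 and 0.146, all 3 with an unadjusted p under 0.05), where it called 0.671% of all genes. DESeq2 called all 3, and 417 of the 14903 tested genes. In luminal cells Dcpp2 was at -3.5 (SE 1.13, adjusted p = 0.132) and was called with the replicate number as a block (-3.4, adjusted p = 0.0351). DESeq2 called it too (adjusted p = 0.042), and 1089 of the 14903 tested genes. Dcpp2 reads per Dcpp1 read were even in the controls (0.0721 to 0.0868) and lower in the luminal knockout-labelled libraries (0.00956 to 0.02). The basal knockout-labelled libraries held 0.101, 0.0459 and 0.033, on 12, 5 and 3 Dcpp2 counts.

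Of the acinar genes, 6 of 11 were called higher and 1 lower in the luminal controls (16.3% of all genes called higher). The water channel Aqp5 (5.52, SE 0.5), the transcription factors Spdef (3.34, SE 0.4) and Bhlha15 (3.06, SE 0.61), and the chloride cotransporter Slc12a2 (2.31, SE 0.39) were among the higher ones. Mammary luminal cells are known to express several of these, so the list is not specific to salivary acini. Of 3 tested submandibular duct genes, the growth factor Egf was called in the controls (3.36, SE 0.72), and the kallikrein Klk1 in the knockout-labelled libraries (2.59, SE 0.96, adjusted p = 0.0491), while in the controls Klk1 was at 1.97 (SE 0.93, adjusted p = 0.127). Esp8, an exocrine gland peptide, was 4.48 higher in luminal controls (SE 1.12), on 140 counts against 6, and it too passed the filter only through luminal libraries.

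In luminal knockout-labelled against control, 7 of the 35 genes were called higher and 0 lower, where 3.03% of all tested genes were called and 2.21% called higher. Nothing is read from this excess: 4 of the 7 (Mup4, Mup6, Mup14 and Scgb2b2) passed the filter on low counts only through the luminal knockout-labelled libraries, and 6 of the 7 are relatives of genes picked for this contrast. The median log2 fold of the 35 was 0.78 (all genes -0.03), and 15 had an unadjusted p under 0.05. With the replicate number as a block, 11 were called, among them these 7, Dmbt1 and Slc12a2 (adjusted p = 0.0258) higher and Dcpp2 lower, and the count over all genes went from 451 to 1097. Leaving out any 1 luminal library left between 1 and 4 of them, the fewest without luminal control replicate 2. The muscarinic receptor Chrm3, which drives fluid secretion, rose by 2.2 on the log2 scale (SE 0.48, adjusted p = 0.0324), from 50, 16 and 27 counts to 160, 132 and 196.

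The remaining 6 belong to the families of Mup5 and Scgb2b26. Mup4 had 0 counts in the luminal controls and 184 in the knockout-labelled libraries, at least 53.3-fold higher against a limit of 3 counts over the group. Mup6 had 2 against 63 counts (scaled ratio 27.4, exact 95% interval 7.27 to 231) and Mup14 3 against 142 (41.1, 13.8 to 202). Given the shared stretches in Mup transcripts, reads of Mup5 and Mup4 could be split by the counting. Scgb1b27, the alpha subunit known to pair with beta subunits in saliva, had 1109, 598 and 2101 counts in the luminal controls and 51378, 7996 and 34756 in the knockout-labelled libraries, and rose by 4.46 (SE 0.97, adjusted p = 0.0324). Its neighbour and partner Scgb2b27 had 1255, 538 and 2002 against 46611, 7207 and 30736 counts and rose by 4.32 (SE 1.01, adjusted p = 0.0458). Scgb2b2 had 3 against 131 counts (scaled ratio 38.0, exact 95% interval 12.7 to 186). Scgb1b27 reads per Scgb2b27 read were between 0.884 and 1.55 in all 12 libraries, a 1.75-fold spread, and Scgb2b26 stayed at 0.0193 reads or less per Scgb2b27 read.

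In basal knockout-labelled against control, 0 of the 35 genes were called by edgeR, where 0.671% of all genes were called. At an unadjusted p under 0.05 there were 11, and DESeq2 called 5 (2 higher and 3 lower). The median log2 fold was 0.66 (all genes -0.01). The difference between the luminal and basal knockout effects was called for 0 of the 35 by edgeR, with 2 at an unadjusted p under 0.05 and 0 by DESeq2, where 0.275% of all genes were called.

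**Figure D4:**
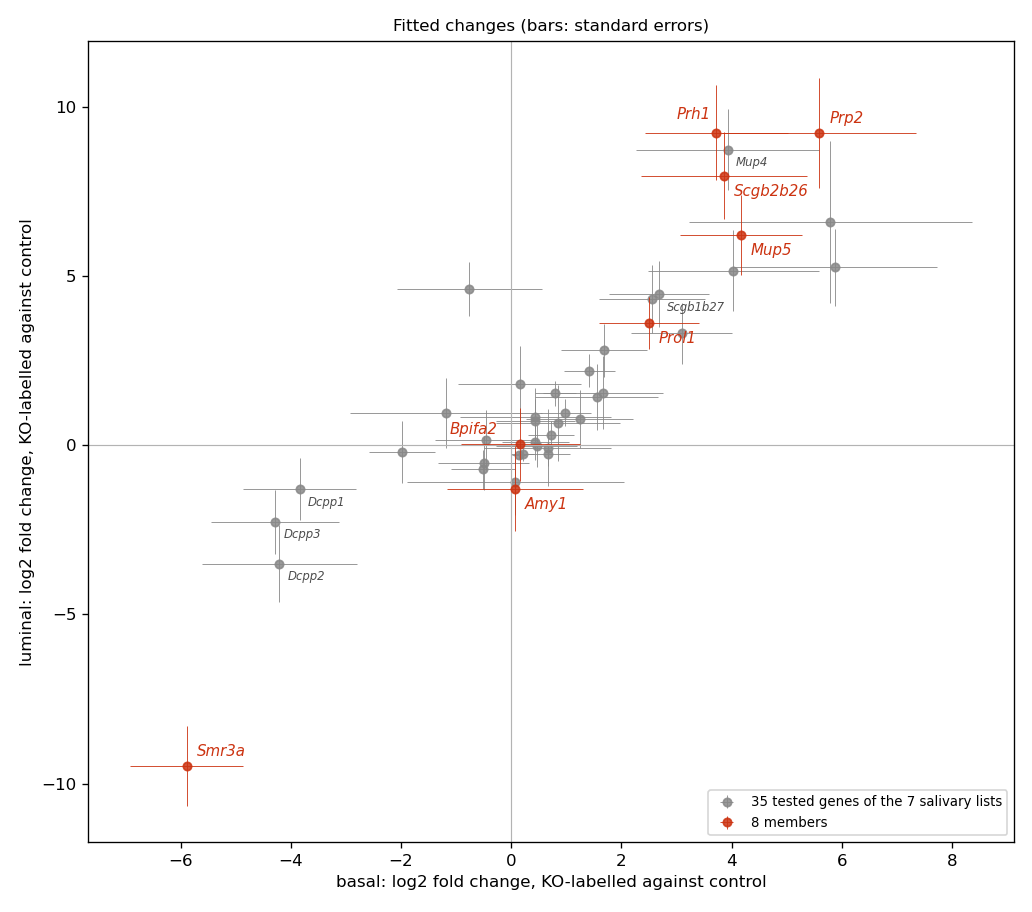
Fitted log2 fold changes, knockout-labelled against control, in basal cells (horizontal) and luminal cells (vertical) for the 8 members in red and 35 tested genes of the salivary lists in grey, with standard errors as bars. Values of genes with 3 or fewer counts in a group, such as Prp2, Scgb2b26 and Mup4, depend on the fit's prior count, Smr3a lies lowest on both axes and Dcpp1, Dcpp2 and Dcpp3 lie left of 0.

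Amylase and several secreted enzymes are also made in pancreas, so pancreatic genes were read as well. Of 19 listed genes, 6 had no read in any library (Cpa1, Cpb1, Cela3b, Pnlip, Prss1 and Try5), and the others had reads. From which organ the reads came was not tested. The list summed to 2.37 to 4.49 CPM in the basal controls, 3.76 to 18.5 in the basal knockout-labelled, 35.0 to 107 in the luminal control and 13.1 to 24.9 in the luminal knockout-labelled libraries. Of 8 tested, 6 were called higher in luminal than basal controls (16.3% of all genes), but only Cel, a lipase also found in milk, at 3.33 (SE 0.49), would have passed the filter on low counts without the luminal libraries, so nothing is read from that count. In luminal knockout-labelled against control 1 of 8 was called, where 3.03% of all genes were called. This was the elastase Cela2a, which rose by 2.82 (SE 0.44, adjusted p = 0.0129) on 16 against 135 counts. It passed the filter only through the luminal knockout-labelled libraries. The pancreatic amylases had few counts beside those of Amy1: Amy2a3 had 0.00281 or fewer reads per Amy1 read in every library and Amy2a4 0.00277 or fewer, and 1% of the 50-base stretches of Amy1 transcripts occur in each of these 2 genes. Amy2a4 (669, 6 and 300 counts in the luminal controls, 17, 15 and 19 in the knockout-labelled libraries), Amy2a3, Amy2b and Amy2a5 were called higher in luminal than basal controls. In the knockout comparisons 0 of these 4 amylases were called by edgeR (0.671% of all genes in basal and 3.03% in luminal cells). DESeq2 called Amy2a4 lower in luminal cells (adjusted p = 0.0311). Major urinary proteins are also a known product of liver, and Alb, its main secreted protein, had 0 or 1 count in each library. The list of 12 liver genes summed to 84.6 to 115 CPM in the basal controls and 331 to 509 in the luminal controls. All 3 tested (Fgg, Hp and Ttr) were called higher in luminal than basal controls (16.3% of all genes). Whether they passed the filter on low counts only through luminal libraries was not examined. The liver genes with the most counts were Fgg, which fell by 2.23 in luminal knockout-labelled libraries (SE 0.38, adjusted p = 0.0126), and Hp, which did not pass (0.59, SE 0.29).

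The genomic neighbours of the 8 genes were read within 500000 bases. Within this distance of Smr3a lie casein genes. Csn1s1 fell by 6.1 on the log2 scale in luminal cells (SE 0.44, adjusted p = 5.91e-05). In basal cells it fell by 3.41 (SE 0.57, adjusted p = 0.0255), on 20, 21 and 18 against 0, 3 and 2 counts. Csn2 fell by 5.47 in luminal cells (SE 0.75, adjusted p = 0.00504). It passed the filter on low counts only through the luminal controls, at 12.9, 17.3 and 6.56 CPM. The other 5 of 7 tested neighbours of Smr3a did not pass. Near Scgb2b26, Scgb1b27 and Scgb2b27 rose and Wtip fell by 1.03 (SE 0.2, adjusted p = 0.0189) in luminal cells, out of 8 tested. For the other 6 genes 0 neighbours passed in either knockout comparison by edgeR, of 3 to 10 tested each. Of all tested genes 0.671% (basal) and 3.03% (luminal) were called. DESeq2 called Col11a1 (basal) and Amy2a4 (luminal) near Amy1, A630073D07Rik near Prp2 and Prh1, and Fkbp15 near Mup5, which was also called with the block.

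Genes with the most similar pattern were sought over the 12 libraries, by Pearson's r of log2(CPM + 1) among 13234 genes. The 12 points share lineage and genotype labels, so the coefficients describe these libraries. Closest to Bpifa2 were 2310057J18Rik (r = 0.995), the cysteine-rich secretory protein Crisp1 (0.994), Dnase1 (0.994), Car6 (0.989) and the cystatin Cst10 (0.988). Closest to Prp2 were the ion channel Asic2 (0.963), the dynein Dnah6 (0.941), Lce6a (0.938), the interleukin receptor Il1rl1 (0.937) and Tmem71 (0.935). Closest to Smr3a were Zfp592 (0.913), 1700052K11Rik (0.893), the pentose phosphate enzyme Rpia (0.889), Nmt2 (0.889) and the casein Csn1s1 (0.885). Secreted proteins of saliva thus made up part of the set nearest Bpifa2, and a milk protein was in the set nearest Smr3a.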

How the data were processed

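Total RNA from mammary basal and luminal cells was taken with an RNeasy kit and sequenced from TruSeq RNA v2 libraries, which do not mark strand, per the labels' protocols. The submitters' processing notes name CASAVA 1.8.2, featureCounts and mm10. The aligner was not given in the sources used here, nor was the annotation. The authors deposited raw read counts for each gene, not normalized, and 0 values differed between the series table and 12 separate tables. The 8 genes, the gene lists and the rule for named genes were chosen with earlier results of these data known. The rule took the 8 genes, up to 6 called genes per list, Alb and the 2 liver genes with most counts, and the 5 genes most like each of Bpifa2, Prp2 and Smr3a. Rnpc3 and the neighbours were named for results that turn on them, after their values were seen. Some list genes are not reported here by name and stay in the counts.

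Counts were tested with edgeR 4.0.16 (quasi-likelihood F test, robust, TMM factors of 0.8873 to 1.117, default filter by group) in 1 model of 12 libraries and 4 group means with 8 residual degrees of freedom. The 14903 tested genes hold at least 99.85% of each library. Benjamini-Hochberg adjusted p under 0.05 over all tested genes was called. CPM of the 8 genes are scaled to the counted reads of the library, without TMM. P-values measure the spread between these libraries. Intervals are exact (95%) and cover counting error only. The code was tested on simulated counts. Same-numbered libraries deviated together between luminal knockout-labelled and control (correlations 0.355, 0.375 and 0.597) and between luminal and basal controls (0.329, 0.425 and 0.474), which was taken as pairing. The main model has no replicate term, so its SEs, p-values and calls do not use this pairing. Alternatives were other scalings, no filter, DESeq2 1.42.0, the replicate block, the compared groups alone, and each library left out. RefSeq (GRCm38, which is mm10) gave positions for 8 members and upstream sequence for 7, and transcripts came from GENCODE M21.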

Additional observations from a re-analysis of the deposited data

How the results depend on the processing

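No direction reversed for a value that passed the test. The count of genes called in basal knockout-labelled against control (100) was 59 with library size alone, 417 with DESeq2, 236 with the replicate block, 151 with only the groups compared, and 17 to 122 with 1 library left out. For the other salivary genes (0) it was 5 with DESeq2, 1 with the block, and 0 with any library left out. In luminal cells the count (451) was 1089 with DESeq2, 1097 with the block, 199 with only the groups compared, and 127 to 589 with a library left out, and that of the other salivary genes (7) was 11, 11, 3 and 1 to 4. The difference of the effects (41) gave 354 with DESeq2, 106 with the block and 10 to 86 with a library left out. For other salivary genes in luminal against basal controls (23), leaving a library out gave 15 to 23. In luminal against basal cells, the counts over all genes (4942 and 6044) stayed within 1.5 times under every setting run. The cause was not tested. Scaling by library size alone moved the median log2 difference of luminal against basal knockout-labelled libraries from 0.03 to 0.15. With Rn45s and mitochondrial genes left out of the total, 32 of 32 group means of the 8 genes moved by less than 1 SD. The replicate block changed no luminal against basal call of the 8 genes. Basal numbers did not pair (correlations -0.0657, 0.395 and 0.181). Same-numbered luminal and basal knockout-labelled libraries correlated at 0.0894, 0.466 and 0.45. Each was the highest for its library in that comparison, though that of replicate 1 was weak. Of the basal fitted values, those of Prp2 (1.98 without knockout-labelled replicate 2) and Scgb2b26 (1.29 without knockout-labelled replicate 3) lean on 1 library. Depth limits Prp2, Prh1 and Scgb2b26, which had 0 to 6 counts in each control.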
